A study of Mus musculus with 21 samples.

Results

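Broad H3K4me3 domains were taken as the peaks of the pooled H3K4me3 list of cycling myoblasts that were at least 5 kb wide from start to end. There were 1452 of them among 23663 pooled peaks, which is 6.14% of the peaks and 20.9% of the bases under them. The cells were C2C12, an established line of mouse myoblasts that fuses into myotubes when serum is withdrawn. The assay was CUT&RUN, in which an antibody directs a nuclease to its target in permeabilized cells and the released DNA fragments are sequenced. Cycling cells were kept in 20% FBS, frozen in 10% DMSO and left unfixed, and had 3 replicates with an antibody to H3K4me3 and 3 with an antibody to PSME3. Day 2 cells had spent 48 h in 2% horse serum, and had 1 library per antibody in each of 4 preparations. Of these, 2 used fresh and 2 used frozen cells, once unfixed (native) and once crosslinked, with formaldehyde at 0.1% for 5 min. No group carried a genetic change. The IgG libraries were not analysed here.

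H3K4me3 is the trimethylation of lysine on the tail of histone H3, and it is laid down by SET1 and MLL family complexes around the starts of transcribed genes. At most active promoters the mark is narrow, while at some genes it runs far into the gene body, and such broad domains are known to occur at cell identity regulators and at highly transcribed genes. PSME3, also called REGγ or PA28γ, is a nuclear activator of the 20S proteasome. In myoblasts, MyoD and Myf5 hold the muscle fate during proliferation, and differentiation involves exit from the cell cycle and activation of Myogenin and the sarcomere genes.

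The stretches before 6 gene starts inside domains are shown because the results below turn on these genes. Each run is the 250 bases before the start on the strand of the gene, in GRCm38 coordinates and from RefSeq, with CG dinucleotides in capitals. Mef2d encodes a MEF2 transcription factor of the muscle programme, and its domain held the highest number of PSME3 peaks, shared with 2 other domains. Junb encodes an AP-1 factor, Pax7 and Myf5 encode the satellite cell and myoblast factors, Rplp0 encodes a ribosomal stalk protein, and Col3a1 encodes a fibrillar collagen chain.
Mef2d (chr3:88142122-88142371, plus strand): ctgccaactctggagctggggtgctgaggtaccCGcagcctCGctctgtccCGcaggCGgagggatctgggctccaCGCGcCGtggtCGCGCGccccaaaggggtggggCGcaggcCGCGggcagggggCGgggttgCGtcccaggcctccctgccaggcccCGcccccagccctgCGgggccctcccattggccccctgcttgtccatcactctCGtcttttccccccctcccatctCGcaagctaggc
Junb (chr8:84978749-84978998, minus strand): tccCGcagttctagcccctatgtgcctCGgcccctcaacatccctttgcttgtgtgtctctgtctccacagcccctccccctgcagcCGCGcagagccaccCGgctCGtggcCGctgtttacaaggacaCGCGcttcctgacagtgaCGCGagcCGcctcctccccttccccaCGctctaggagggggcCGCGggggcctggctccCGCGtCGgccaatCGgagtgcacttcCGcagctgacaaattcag
Pax7 (chr4:139832969-139833218, minus strand): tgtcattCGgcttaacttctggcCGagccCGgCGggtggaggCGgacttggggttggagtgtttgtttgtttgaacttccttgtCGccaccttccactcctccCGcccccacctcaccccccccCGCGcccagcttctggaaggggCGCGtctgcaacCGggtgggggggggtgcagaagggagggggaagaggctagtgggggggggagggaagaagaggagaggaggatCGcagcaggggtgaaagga
Myf5 (chr10:107486135-107486384, minus strand): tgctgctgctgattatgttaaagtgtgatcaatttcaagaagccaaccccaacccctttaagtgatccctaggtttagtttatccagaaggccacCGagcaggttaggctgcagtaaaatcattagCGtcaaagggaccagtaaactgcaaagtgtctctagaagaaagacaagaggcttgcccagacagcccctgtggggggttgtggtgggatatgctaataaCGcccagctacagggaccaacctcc
Rplp0 (chr5:115559217-115559466, plus strand): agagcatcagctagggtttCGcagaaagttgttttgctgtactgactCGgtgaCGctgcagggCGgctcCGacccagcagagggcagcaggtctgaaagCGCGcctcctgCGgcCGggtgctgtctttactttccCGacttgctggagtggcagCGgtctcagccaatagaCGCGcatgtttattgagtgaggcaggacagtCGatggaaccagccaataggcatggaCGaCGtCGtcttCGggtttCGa
Col3a1 (chr1:45311288-45311537, plus strand): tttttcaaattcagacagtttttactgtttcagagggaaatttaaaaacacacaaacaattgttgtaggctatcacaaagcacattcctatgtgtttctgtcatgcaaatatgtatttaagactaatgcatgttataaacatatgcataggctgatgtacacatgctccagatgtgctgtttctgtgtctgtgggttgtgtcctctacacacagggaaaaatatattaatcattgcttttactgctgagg
In the 300-base windows that run on to 50 bases after these starts, PSME3 peaks lay on Mef2d and Junb and not on the others. The printed runs of Mef2d and Junb held 19 and 20 CG dinucleotides, that of Rplp0 held 19 and that of Pax7 held 13, whereas that of Myf5 held 3 and that of Col3a1 held 0. Across all 1954 RefSeq promoter windows whose start lay in a domain, the median GC content was 64.0%, the median number of CG dinucleotides per 300 bases was 24 and their observed over expected ratio was 0.803. The windows with a start in a mid-sized peak, one at least 3 kb and under 5 kb wide, had 64.0%, 25 and 0.843, and the 19726 windows in no pooled peak had 48.0%, 3 and 0.218. Domain windows were thus far from unmarked promoters in base composition and close to those of mid-sized peaks.

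Domains also held 46 microRNA hairpin genes, in 41 domains. That is 2.82% of domains, beside 0.437% of narrower peaks, which are also shorter. Of the 155 hairpin genes under any pooled peak, 46 lay in domains, which made up 20.9% of the bases under pooled peaks. MicroRNAs pair with messenger RNAs through the seed, bases 2 to 8 of the mature strand, which is in capitals in the runs below. The strands are shown because they fall into 3 pairs with the same seed that come from different domains, and because the remaining strands come from a domain that holds 2 hairpins or from domains with no gene start from the tables used.
mmu-miR-196a-5p (chr15:102973365-102973386, plus strand): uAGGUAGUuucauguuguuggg
mmu-miR-196b-5p (chr6:52230129-52230150, minus strand): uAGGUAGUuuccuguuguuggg
mmu-let-7e-5p (chr17:17830366-17830387, plus strand): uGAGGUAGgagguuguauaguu
mmu-let-7i-5p (chr10:122985698-122985719, minus strand): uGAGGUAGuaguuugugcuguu
mmu-miR-125a-5p (chr17:17830817-17830840, plus strand): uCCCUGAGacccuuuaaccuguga
mmu-miR-125b-5p (chr9:41581940-41581961, plus strand): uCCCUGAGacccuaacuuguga
mmu-miR-199a-5p (chr1:162217844-162217866, plus strand): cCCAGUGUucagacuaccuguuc
mmu-miR-214-3p (chr1:162223438-162223459, plus strand): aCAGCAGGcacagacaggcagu
mmu-miR-21a-5p (chr11:86584120-86584141, minus strand): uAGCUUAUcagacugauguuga
miR-196a and miR-196b lay in the HoxC and HoxA domains, let-7e and miR-125a in the same domain at Spaca6, and let-7i, miR-125b-1 and miR-21a each in a domain of their own. The widest peaks over the domain of let-7e and miR-125a were 8933, 8952 and 7759 bp in cycling replicates 1, 2 and 3, and 5177, 5302, 5327 and 5027 bp at day 2, in the order of fresh native and crosslinked, then frozen native and crosslinked cells, which is kept for all day 2 values. The miR-125b-1 domain had 11854, 13314 and 12347 bp in cycling cells and 8164, 10526, 9820 and 9305 bp at day 2. The Dnm3os domain, which holds miR-199a-2 and miR-214, had 6927, 8611 and 7075 bp, and then 5702, 7867, 6999 and 7077 bp. These 3 domains stayed at or above 5 kb in every library, and the cycling and day 2 widths overlapped for Dnm3os alone.

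The pooled domains were between 5004 and 46195 bp wide, with a median of 6155 bp and quartiles of 5508 and 7527 bp. The median over the narrower pooled peaks was 1438 bp. A width of at least 7 kb was reached by 464 domains, of at least 10 kb by 123 and of at least 20 kb by 8. The fold enrichment that MACS2 gave had a median of 15.7 in domains, the same as the 15.7 of mid-sized peaks and above the 3.91 of all narrower peaks. The limit of 5 kb passed through a continuous range of widths. Cdh15, Adgre5 and Arrdc3 lay just inside it at 5004, 5005 and 5007 bp. Cnep1r1 and Rbm15b lay just outside at 4998 bp each, and Mars2 was 1 bp wider than those.

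How much of a pooled width was found in each replicate differed between domains, and replicate 2 stood apart. In replicates 1, 2 and 3, 52.1%, 75.5% and 60.7% of the domains overlapped a single peak of at least 5 kb. All 3 lists had such a peak at 653 domains, 2 lists at 223, 1 list at 330 and no list at 246. Of the 330, replicate 2 supplied the wide peak in 259. The median width of the widest peak was 5046, 5862 and 5280 bp, and the coefficient of variation over the 3 replicates had a median of 9.84%. Replicate 2, whose list holds 40999 peaks against 18077 and 19365, was the widest in 1014 domains, which is 69.8%. Without it, 947 domains had a peak of at least 5 kb in either remaining list. The 876 domains broad in at least 2 lists are used below as a second version of the main results.

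**Figure D1:**
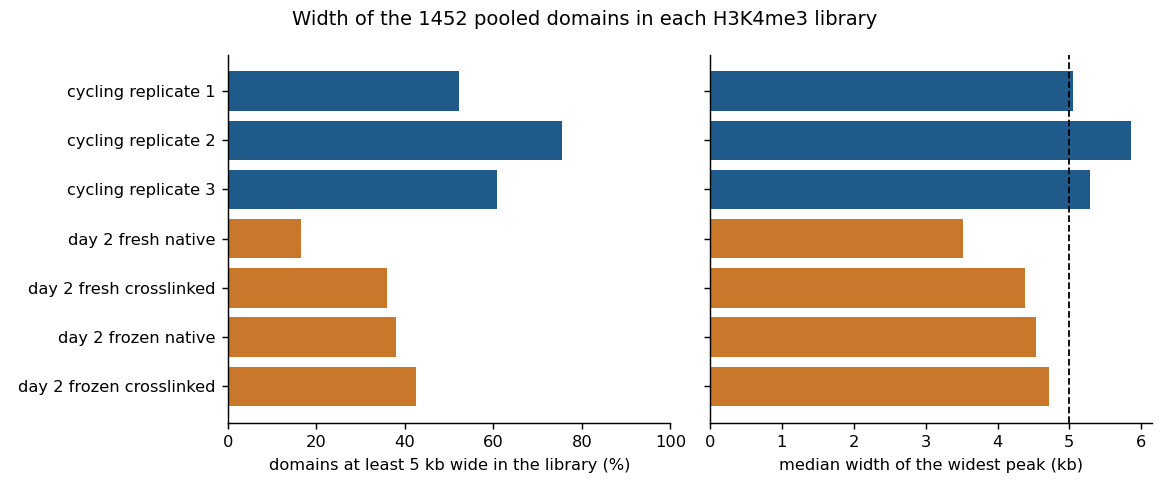
The left panel plots the percent of the 1452 domains that overlapped a peak of at least 5 kb in each H3K4me3 library, and the right panel the median width in kb of the widest peak over each domain, with the 5 kb limit dashed. Bars are 3 cycling replicates in blue and 4 day 2 preparations in orange, and the day 2 bars lie between 16.5% and 42.6%, below the lowest cycling bar of 52.1%.

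Most domains lay at gene starts. Of the 1452, 1144 held a stranded start of an annotated gene. With either boundary counted for genes without a stranded start, the number was 1335. That is 91.9%, beside 44.9% of narrower peaks and 90.3% of mid-sized peaks. A further 95 lay inside a gene body away from its start, and 22 lay outside genes. 811 domains held 1 gene, 452 held 2, 57 held 3 and 15 held 4 or more, so 36.1% held at least 2 genes, beside 28.9% of mid-sized peaks. In the 566 domains with a single gene and a single stranded start, the mark reached a median of 1488 bp upstream and 4514 bp downstream of the start, and 512 of them (90.5%) reached farther downstream. The corresponding medians for mid-sized peaks were 1106 and 2524 bp, with 91.1% reaching farther downstream. Both classes thus reached farther into the gene than upstream of it, and the medians of the domains exceeded those of mid-sized peaks by more on the downstream side.

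The 2 widest domains lay in Hox clusters. The HoxC domain (chr15:102941851-102988045), over Hoxc9, Hoxc10, Hoxc11 and the long noncoding RNA Hotair, measured 42903, 49707 and 45607 bp in the replicates. The HoxA domain (chr6:52208355-52254519), from Hoxa3 to Hoxa11, measured 30548, 46577 and 31415 bp. Hox genes encode the homeodomain factors that give cells positional identity. The third widest, chr15:85652526-85690701, lay outside genes, 12002 bp from the long noncoding RNA gene D130051D11Rik, and measured 26237, 38295 and 36442 bp. Neat1, the RNA scaffold of paraspeckles, had 17787, 23146 and 19596 bp. These 4 stayed above 10 kb in every cycling library.

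Some of the widest pooled values rested on replicate 2. The domain over Midn, Cirbp, Atp5d and Cbarp had a pooled width of 31770 bp, while the replicate widths were 6018, 33102 and 6420 bp. Junb, pooled at 22096 bp, had 8506, 27631 and 9094 bp. The first region held 6, 1 and 5 peaks in replicates 1, 2 and 3, and the Junb region held 4, 2 and 4. In replicates 1 and 3 the widest of these peaks was still above 5 kb in both regions.

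All 7 myoblast markers chosen for the check of the cell type had a domain at their start, and none of 6 markers of differentiated muscle had a pooled cycling peak. The myoblast markers included Myod1, Myf5, Pax7, the desmin gene Des, the M-cadherin gene Cdh15 and the integrin gene Itga7. Of 14 markers of other cell types, 3 had a pooled peak and 1 a domain, Pparg, the adipogenic nuclear receptor, at 5105 bp. Pparg had 4751, 3344 and 4615 bp in the replicates and so was under 5 kb in each. Des, with 3516, 5926 and 4589 bp, and Cdh15, with 3856, 5199 and 4239 bp, reached 5 kb in replicate 2 alone. At day 2 each of the 6 markers of differentiated muscle had a peak in at least 1 list. Acta1 was marked in all 4 lists, Myog and Ckm in 3 each, Tnnt3 in 2, and Myh3 and Actc1 in 1 each.

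Among the gene groups examined, a start in a domain was compared with all genes marked in cycling cells, of which 1942 of 13673 had one, or 14.2%. Of the 17 marked myogenic factors 9 had a domain, among them Pax7, Mef2d, Myf5, Six4, Tcf3, Eya4 and Myod1. Pax7 had 15300, 16008 and 15573 bp, a narrow range around 3 times the limit. Myf5 had 6411, 7002 and 7811 bp. Myod1, pooled at 5621 bp, had 4189, 4120 and 5312 bp, so a width of at least 5 kb was found there in replicate 3 alone.

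Signalling and immediate early genes were examined next. The serum response and AP-1 group, which holds the transcription factors that answer growth factors within minutes, had 21 of 29 marked genes in domains. Fosl2 had 8587, 8138 and 7633 bp, Myc had 6116, 6876 and 7295 bp, and Srf, the factor that binds the CArG box of serum response elements, had 4230, 6167 and 4527 bp. The Yap, Tead and TGF-beta group had 12 of 21. Its widest domain was at Smad7, the inhibitory Smad, with 17289, 17789 and 17394 bp, and it also held Amotl2 and Ankrd1, both known Yap targets, Ccn1, Skil and Ski. The Id, Hes and Notch group, whose Id proteins sequester the E-protein partners of MyoD, had 6 of 17, with Id2 at 9344, 9149 and 9393 bp.

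Genes of cell structure were also examined. Of 31 marked genes of the actin cytoskeleton and adhesion 21 had a domain, such as the tropomyosin gene Tpm1 with 10214, 9806 and 9990 bp, the zyxin gene Zyx with 8640, 10179 and 9245 bp, and the talin gene Tln1 with 6989, 7228 and 6872 bp. Extracellular matrix genes had 13 of 19 in 12 domains, since Col4a1 and Col4a2 share a start region. Among cell cycle regulators 10 of 18 had one, both promoters and inhibitors of the cycle, such as the cyclin D1 gene Ccnd1 with 8618, 8968 and 8335 bp and the p27 gene Cdkn1b with 14204, 18370 and 14399 bp. Chromatin and transcription coregulators had 11 of 27. The machinery of H3K4 methylation itself had 2 of 15, Setd1b and Kmt2d, or 13.3%, near the share of all marked genes.

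Ribosomal protein genes had 35 of 80 in 34 domains, or 43.8%, and histone cluster genes 39 of 55 in only 12 domains, in which neighbouring histone genes fall under shared peaks. Hox genes had 10 of 18 in 3 domains. PSME3 and proteasome genes had 1 of 18, or 5.56%, which was Psmb1 beside Tbp and below the share of all marked genes. Few sarcomere genes and genes of other lineages were marked at all, and 1 of 4 and 1 of 6 had a domain, which were Des and Pparg. Genes of these lists were picked by function with earlier results known, and their counts are a description.

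PSME3 peaks were found in more of the domains than of the narrower peaks, in each replicate. PSME3 replicates 1, 2 and 3 had a peak in 13.4%, 9.30% and 38.4% of domains (194, 135 and 557 domains), beside 3.76%, 2.62% and 10.5% of narrower peaks. Over all pooled H3K4me3 peaks the percentages were 4.35, 3.03 and 12.2. The mean difference was 14.7 ± 11.5 percentage points (SD, n = 3), with the same sign in 3 of 3 replicates and a two-sided exact sign-flip permutation p of 0.25, the smallest that 3 replicates allow. Replicate 3 carried much of the size, and without it the mean difference was 8.14 percentage points. Against mid-sized peaks, which had 7.40%, 6.70% and 25.4%, the mean difference was 7.16 ± 5.26 percentage points (SD, n = 3, exact p of 0.25). Against all narrower peaks, the mean difference was 17.0 percentage points for the domains broad in at least 2 H3K4me3 lists.

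With the pooled PSME3 list, 770 domains held a PSME3 peak, which is 53.0%, beside 22.3% of all pooled H3K4me3 peaks, 20.2% of the narrower peaks and 41.0% of mid-sized peaks. A single PSME3 peak was found in 651 domains, 2 in 104, 3 in 12, 4 in 3 and none in 682. Of the 5812 pooled PSME3 peaks, 907 had their centre in a domain, which is 15.6%, and 904 lay wholly inside. They were wider than those in narrower H3K4me3 peaks, with a median of 592 against 422 bp, at the same fold enrichment of 2.92 against 2.93. They also recurred more often, with 22.8% found in at least 2 replicate lists against 13.6%. Of the 33 pooled PSME3 peaks at least 2 kb wide, 23 lay in domains.

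Wider H3K4me3 peaks held a PSME3 peak more often, but not in proportion to their width. The share with a pooled PSME3 peak was 7.61% under 1 kb, 43.6% from 4 to 5 kb, 50.7% at 5000 to 5999 bp and 69.9% at 10 kb and above. The number of PSME3 peaks per 10 kb of H3K4me3 peak went the other way, from 1.23 under 1 kb to 0.996 at 5000 to 5999 bp and 0.795 at 10 kb and above. In the single PSME3 replicates the density was 0.208, 0.137 and 0.611 per 10 kb in domains and 0.214, 0.150 and 0.601 per 10 kb in narrower peaks. That difference, -0.00303 ± 0.0118 per 10 kb (SD, n = 3, exact sign-flip p of 0.75), was smaller than the spread between replicates, and its sign differed between them. With the replicate block, which kept only peaks found in the H3K4me3 list of the same number, it was -0.0136 ± 0.00815 per 10 kb (SD, n = 3, exact sign-flip p of 0.25), with the same sign in all 3 pairs.

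**Figure D2:**
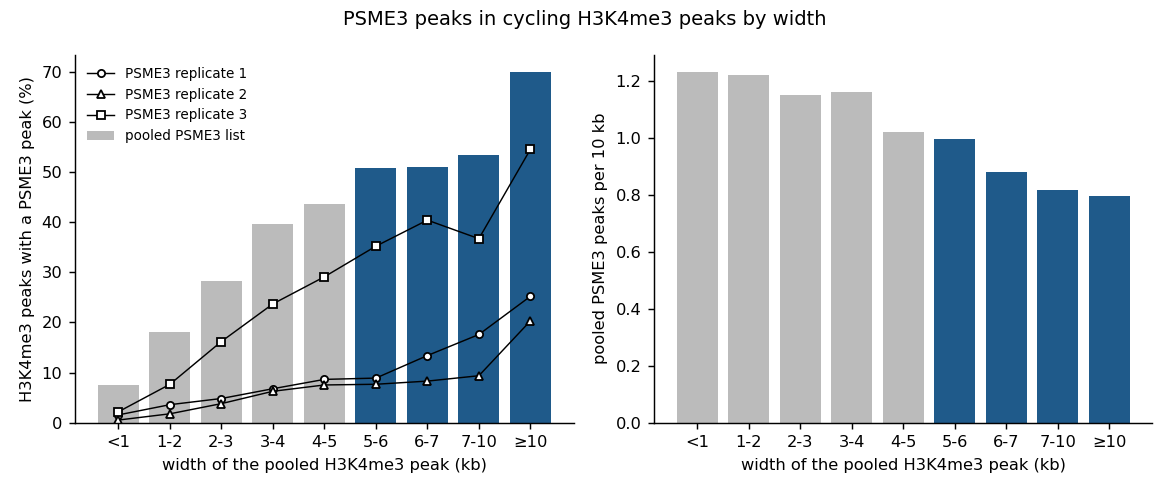
Pooled cycling H3K4me3 peaks are grouped by width in kb on both x axes, with peaks under 5 kb in grey and domains in blue. On the left, bars give the percent with a pooled PSME3 peak and lines the percent with a peak of each PSME3 replicate, highest at 10 kb and above at 69.9% for the pooled list, and on the right, bars give pooled PSME3 peaks per 10 kb, which run from 1.23 to 0.795.

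Inside domains, most PSME3 peaks lay near gene starts. In the domains with a stranded start, 69.4% of 739 pooled PSME3 centres lay within 500 bp of a start, a zone that makes up 19.4% of the bases of those domains. The replicate lists gave 74.7%, 71.6% and 73.2%. The density was 3.31 PSME3 peaks per 10 kb within 500 bp of a start, 0.524 from there to 1 kb, 0.248 farther downstream and 0.506 farther upstream. Of the domain bases, 49.5% were in the downstream class, with 13.3% of the centres. In mid-sized peaks 87.9% of the centres lay within 500 bp of a start and 2.97% in the downstream class, so the share near starts was smaller in domains. In mid-sized peaks the density within 500 bp of a start was 3.21 per 10 kb and the downstream density was 0.0892, so the densities were close at the start and lay farther apart away from it. The gene start sits off the centre of a domain, and the mean distance of PSME3 centres from the domain centre was 0.465, 0.476 and 0.438 of the way to its edge in the replicates, beside 0.5 for even spacing (mean difference -0.0401 ± 0.0195, SD, n = 3, exact sign-flip p of 0.25). For domains of at least 7 kb that mean difference was -0.000943.

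**Figure D3:**
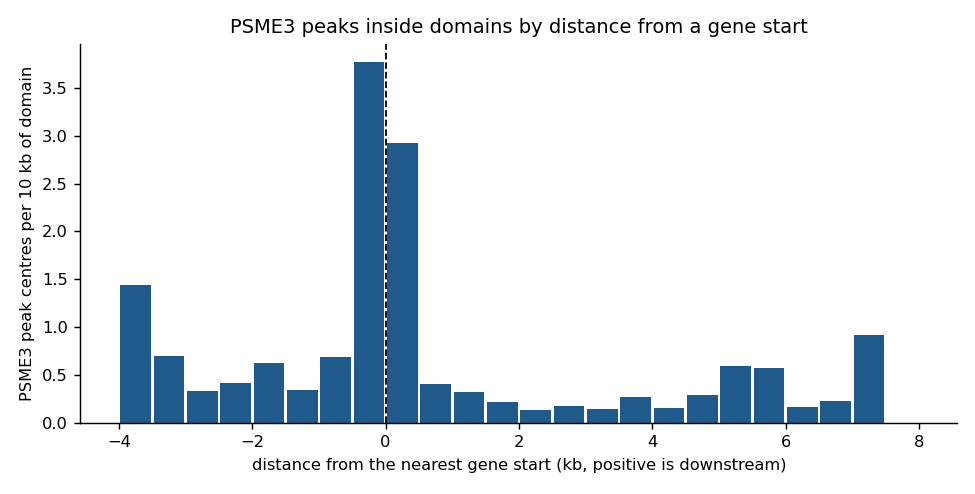
Pooled PSME3 peak centres per 10 kb of domain are plotted against the distance from the nearest gene start in kb, in bins of 500 bp, with downstream distances positive. The bars on either side of the start stand at 3.77 and 2.92, all other bins up to 3.5 kb upstream and 7 kb downstream lie at 0.701 or below, and the outermost bins hold fewer than 10 centres each.

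Where PSME3 lay on the promoter window, the window was richer in some short motifs. Of the 1954 windows in domains, 732 had a pooled PSME3 peak (37.5%), beside 32.2% of windows in mid-sized peaks, 18.0% in narrower ones and 10.4% of all windows. The letters GGGCGG, the core of the GC box, were found on either strand in 78.1% of domain windows with PSME3 and 64.7% of those without, and in 35.7% of all 32851 windows. CCAAT was found in 44.1% and 32.9%, and in 37.4% of all windows. The windows with PSME3 had a median GC content of 65.7% against 62.0%, and the part of base composition in the motif shares was not tested. TATAAA was found in 7.51% and 9.25%, beside 13.6% of all windows. The CArG box was found in 1.91% and 2.05%, beside 1.63% of all windows, and the AP-1 site in 2.32% and 4.66%, beside 5.20%.

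The domains with the most PSME3 peaks were those of Midn and Cirbp, Junb and Mef2d, with 4 each. At Junb, a PSME3 peak of 3086 bp (chr8:84978282-84981367) covered the start and was present in 3 replicate lists, and further peaks lay 2214 bp downstream, 6631 bp upstream and near the start of Rnaseh2a. At Mef2d the peaks lay 3614 and 1675 bp upstream, 88 bp downstream and 3574 bp downstream of the start, and 3 of the 4 were in none of the replicate lists. Lmna, which encodes the A-type lamins of the nuclear envelope, had 3 PSME3 peaks. Those at its annotated starts were in 3 and 2 replicate lists, with fold enrichments of 5.12 and 3.96. Plec, which encodes the cytoskeletal linker plectin, also had 3 in a domain of 16094, 19644 and 16166 bp. All 3 PSME3 replicates had a peak in 55 domains, or 3.79%, beside 0.909% of all pooled H3K4me3 peaks, including those of Foxc2, Setd1b, Smad6, Sin3a, Cdk9, Gsk3b and Bhlhe40. The widest domains with no pooled PSME3 peak were at Zfhx4 with 20984 bp, Brinp3 with 18530 bp and Abt1 with 17570 bp. Next came those within Aopep with 17038 bp and outside genes near Lncpint with 16860 bp. The domain near Lncpint did hold 1 peak of PSME3 replicate 3.

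PSME3 was unevenly spread over the gene groups, beside 53.0% of all domains. Coregulators had it in 9 of 11 domains, Id, Hes and Notch genes in 5 of 6, serum response and AP-1 genes in 16 of 21, Yap, Tead and TGF-beta genes in 9 of 12, myogenic factors in 6 of 9 and cytoskeleton and adhesion genes in 12 of 21. Ribosomal protein genes had it in 6 of 34 and extracellular matrix genes in 2 of 12. On the promoter windows alone, 1 of 31 windows of ribosomal protein genes and 1 of 9 of matrix genes had a PSME3 peak, while 11 of 14 windows of coregulators did. Myogenic factors had it on 2 of 8 windows and Hox genes on 0 of 7, beside 37.5% of all domain windows. The ribosomal windows had a CG observed over expected ratio of 0.928 and the matrix windows 0.470, above and below the 0.803 of all domain windows. Histone genes had PSME3 in 7 of 12 domains and on 17 of 35 windows, and 21 of those 35 windows held TATAAA. Of the 4 widest histone domains, all with a pooled PSME3 peak, those of H2ac10, H2ac11 and H2ac15 had no peak in any PSME3 replicate list. Cell cycle regulators had it in 6 of 10 domains. All 3 Hox domains had a pooled PSME3 peak, though the 1 in the HoxA domain overlapped a peak in 0 of the 3 replicate lists. PSME3 replicate 3 listed 2 peaks elsewhere in the HoxA domain.

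At day 2 nearly every domain still carried H3K4me3, over a shorter stretch. A peak of any width was found in all 4 day 2 lists at 1437 domains, which is 99.0%, beside 50.7% of all pooled peaks. A peak of at least 5 kb was found in 239, 523, 551 and 618 domains, or 16.5%, 36.0%, 37.9% and 42.6%, with the fresh native library lowest. Over all pooled H3K4me3 peaks the percentages were 1.04, 2.40, 2.55 and 2.92. The 95% exact binomial intervals, which cover counting error only, were 14.6 to 18.5%, 33.5 to 38.5%, 35.4 to 40.5% and 40.0 to 45.2%. The median widest peak was 3524, 4384, 4533 and 4716 bp. All 4 values were below the cycling values. Since domains were chosen for their width in cycling cells, some of this would follow from the choice, and how much was not tested. Preparation differed as well, and the frozen native cells are those prepared as the cycling cells were.

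Day 2 peaks covered 57.4%, 72.8%, 72.3% and 76.3% of domain bases and 44.2%, 59.6%, 60.1% and 63.8% of the bases of narrower cycling peaks. The mean difference was 12.8 ± 0.528 percentage points (SD, n = 4), with the same sign in 4 of 4 preparations and a two-sided exact sign-flip permutation p of 0.13, the smallest that 4 values allow. Against mid-sized peaks, with 59.2%, 73.7%, 74.4% and 77.7%, the difference had the opposite sign, -1.55 ± 0.482 percentage points (SD, n = 4, exact p of 0.13). A gap between domains and narrower peaks was also present in the cycling lists, whose coverage of domain bases was higher by 9.58, 4.98 and 7.41 percentage points in replicates 1, 2 and 3. The part of that gap in the day 2 difference was not tested.

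Domains that were broad in more cycling replicates were more often broad in frozen native cells, with 5.28%, 10.0%, 26.0% and 68.5% for 0, 1, 2 and 3 replicates. A width of at least 5 kb in all 4 day 2 lists was found at 230 domains and in no list at 736. Domains with a pooled PSME3 peak were broad in frozen native cells in 41.3%, and those without in 34.2%. The former were also broad in all 3 cycling replicates more often, at 48.1% against 41.5%.

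The gene groups differed in how far the width was kept. In frozen native cells the median ratio of day 2 width to the mean cycling width was 0.84 over all domains. Ribosomal protein genes had 0.61 and histone genes 0.70, and the other preparations gave 0.46, 0.64 and 0.68 for ribosomal, 0.39, 0.72 and 0.69 for histone and 0.65, 0.82 and 0.88 for all domains (fresh native, fresh crosslinked and frozen crosslinked). In cycling replicates 1, 2 and 3 a peak was listed at 100% of domains but at 71.4%, 93.9% and 77.8% of narrower pooled peaks. A pooled peak missing from a cycling list could not count in the next comparison, which limits its share over all pooled peaks. All 4 day 2 widths were below all 3 cycling widths at 651 of the 1452 domains (44.8%), and at 31.5% of all pooled peaks. This was so at 31 of 34 ribosomal domains and 12 of 12 histone domains, and at 0 of 9 myogenic, 3 of 12 matrix, 5 of 21 cytoskeleton and adhesion and 7 of 21 serum response and AP-1 domains. It was so at 4 of 6 domains of the Id, Hes and Notch group, 6 of 11 of the coregulators, 5 of 12 of the Yap, Tead and TGF-beta group and 4 of 10 of the cell cycle regulators.

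**Figure D4:**
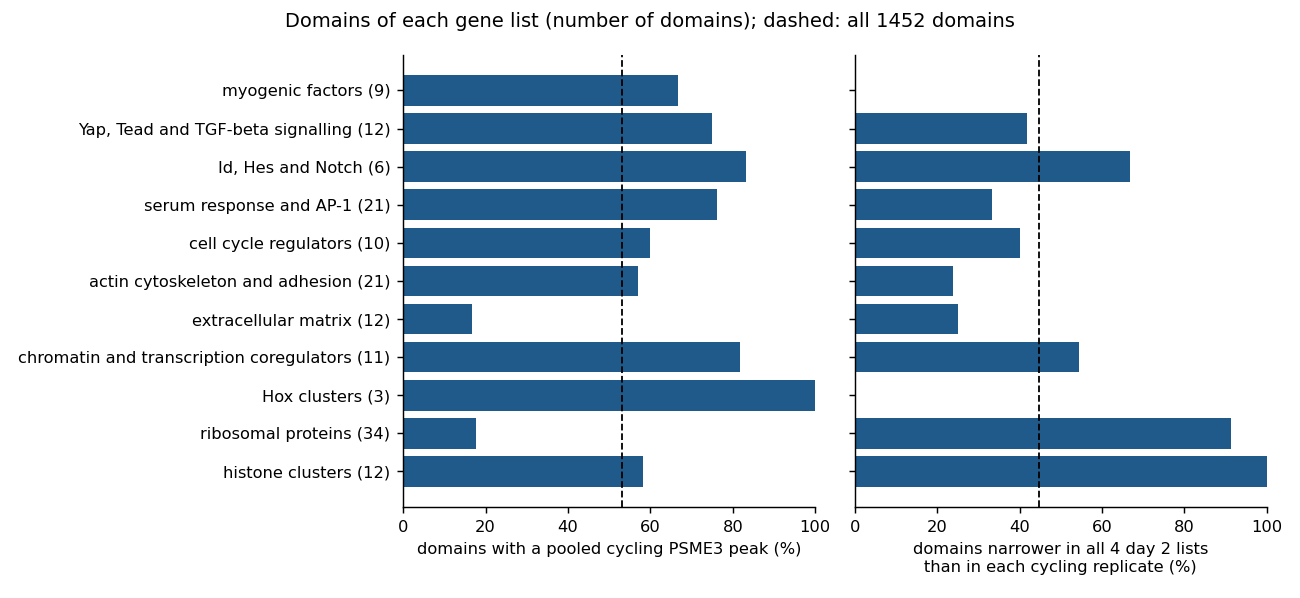
For each gene list, with its number of domains in parentheses, bars give on the left the percent of domains with a pooled cycling PSME3 peak and on the right the percent whose 4 day 2 widths were all below their 3 cycling widths, both on axes from 0 to 100%. Dashed lines mark all 1452 domains, at 53.0% and 44.8%. Ribosomal protein genes stand at 17.6% on the left and 91.2% on the right.

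Ribosomal protein and histone domains showed the shortening at single loci. Rplp0 had 7362, 8025 and 7851 bp in cycling cells and 1658, 2695, 2225 and 3315 bp at day 2. The domain of Rpl7a, which also holds Med22, Surf1 and Surf2, had 9519, 10382 and 9450 bp and then 2907, 3899, 3932 and 3837 bp. In both, the widest day 2 peak was under 0.5 times the width of the narrowest cycling peak. The domain of H2ac13, H2bc13, H2bc14 and H3c10, which encode core histones made for DNA replication, had 8334, 8784 and 8400 bp and then 2602, 3795, 4747 and 3922 bp. The neighbouring domain of H2ac15, H2bc15 and H4c12 had 7639, 9227 and 8560 bp and then 1571, 2757, 2444 and 2645 bp. No library at day 2 reached the 5 kb limit at any of these 4 domains. Of the 34 ribosomal domains 28, and of the 12 histone domains 10, had no peak of 5 kb in any day 2 list, beside 50.7% of all domains. In cycling cells 19 of the 34 ribosomal and 9 of the 12 histone domains had reached 5 kb in at least 2 replicate lists.

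The myogenic domains had a median ratio of 0.93 in frozen native cells, above the 0.84 of all domains. Matrix genes had 1.00, the Yap, Tead and TGF-beta group 0.94, and the serum response and AP-1 group and the Id, Hes and Notch group 0.93 each. In frozen crosslinked cells the Yap, Tead and TGF-beta group and the Id, Hes and Notch group had 0.86 each, below the 0.88 of all domains. In both fresh preparations they lay above all domains. Of the 9 myogenic domains 3 had a peak of at least 5 kb in all 4 day 2 lists. Myf5 had 5822, 6742, 6997 and 6795 bp at day 2, against 6411 to 7811 bp in cycling cells, and the groups overlapped. Mef2d had 6173, 10976, 9898 and 13051 bp against 9504 to 9781 bp, with 3 of the day 2 values above all cycling values. Pax7, which is known to be turned off in differentiation, had 4183, 9160, 15462 and 13671 bp against 15300 to 16008 bp. The frozen native value lay inside the cycling range and the fresh native value was the lowest. Myod1 had 3498, 3387, 3916 and 4239 bp.

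**Figure D5:**
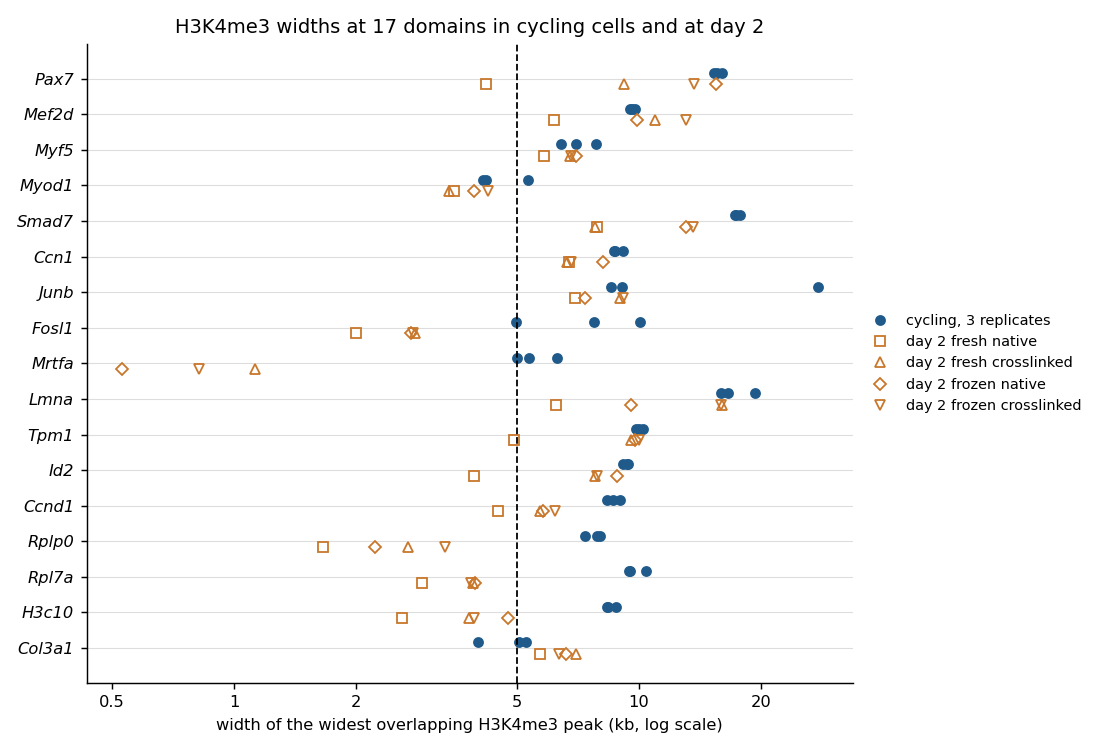
Widths in kb, on a log axis, of the widest H3K4me3 peak over 17 domains named by a gene, with filled circles for the 3 cycling replicates, open symbols for the 4 day 2 preparations and the 5 kb limit dashed. Day 2 symbols lie left of all cycling circles at Rplp0, Rpl7a and H3c10 and right of them at Col3a1, and no fresh native peak was listed at Mrtfa.

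Loss of width was ranked by the widest day 2 peak over the narrowest cycling peak, which was lowest, at 0.23, at Mrtfa and Slco4a1. At an annotated start of Mrtfa, which encodes the actin-sensing coactivator of SRF, cycling cells had 5362, 6283 and 4991 bp, and day 2 cells had no listed peak in the fresh native library and 1126, 527 and 817 bp in the others. Its partner Srf had 4519, 5807, 5616 and 5730 bp at day 2 against 4230 to 6167 bp in cycling cells, with all day 2 values inside the cycling range. Slco4a1, an organic anion transporter gene, had 5802, 6503 and 5206 bp and then 796, 1178, 1139 and 842 bp. Low ratios were also found within Specc1 and Mink1, at 0.25 and 0.30, at Sdc3, at 0.38, and at Clic1 and Msh5, at 0.39. The widths of the first 3 were under 5 kb in every cycling replicate, with at most 4604, 4500 and 3594 bp. Fosl1, an AP-1 factor of proliferating cells, lost less by this ratio and had 4979, 10037 and 7730 bp and then 1998, 2795, 2731 and 2765 bp. Its domain also holds Fibp and Ccdc85b. Nog, which encodes the BMP antagonist noggin and had a ratio of 0.41, had 6051, 5930 and 5978 bp and then 1781, 2356, 2303 and 2434 bp. At Mrtfa, Slco4a1, Fosl1 and Nog, the day 2 and cycling values did not overlap. Hsp90ab1, Ppp1cc, Drap1 and Abt1 were, with Fosl1, the widest domains with no day 2 peak of 5 kb. Of these, Hsp90ab1, with 4957, 12520 and 4884 bp, and Drap1, with 3848, 13365 and 3986 bp, reached 5 kb in cycling replicate 2 alone, and a day 2 width of Drap1, 4085 bp, lay within its cycling range.

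Of the domains 5 (0.344%) were wider in all 4 day 2 lists than in each cycling replicate, beside 0.592% of all pooled peaks, among them those at Col3a1, Clcn5 and Gm15222 and within Tcf4. Col3a1 had 5254, 4001 and 5043 bp in cycling cells and 5700, 6980, 6611 and 6358 bp at day 2. Tcf4, which encodes an E protein, had 6350, 7073 and 6476 bp and then 7114, 7688, 7815 and 7783 bp. The 5 domains with the greatest width in their narrowest day 2 library were HoxC with 32812, 46316, 45563 and 44768 bp, HoxA with 19607, 20642, 30655 and 30900 bp, the domain outside genes on chromosome 15, Plec and the one within Aopep.

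PSME3 peaks were nearly absent from the domains at day 2. The day 2 PSME3 lists held 23, 18, 186 and 77 peaks, and had a peak in 0, 0, 54 and 20 domains. The frozen native value was 3.72% of domains, beside 0.513% of narrower peaks and 0.710% of all pooled H3K4me3 peaks. The frozen crosslinked value was 1.38% of domains, beside 0.171% of narrower peaks. All 54 domains, and all 20 of the frozen crosslinked library, also held a pooled cycling PSME3 peak. Both frozen libraries had a PSME3 peak in 17 domains, among them those of Lmna, Setd1b, Brd2, Sin3a, Nab2, Egr1 and Srf. Setd1b encodes an H3K4 methyltransferase, Brd2 a bromodomain protein that binds acetylated histones and Sin3a the scaffold of a histone deacetylase complex. Of the 54 domains, 30 had an H3K4me3 peak of at least 5 kb in the frozen native library. The numbers of reads are unknown, so a peak that is not listed at day 2 cannot be told apart from one below the detection of that library.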

How the data were processed

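CUT&RUN peak lists were analysed for 14 of 21 libraries, 7 with the H3K4me3 and 7 with the PSME3 antibody, and the 7 IgG libraries were not analysed here. Per the labels, reads were trimmed (Trim Galore), aligned to mm10 (Bowtie2) and passed by the authors to MACS2, for each library and for the pooled cycling replicates. Versions, options and the control are not given in the sources used here. The deposited lists have the layout of MACS2 broad peaks. Each peak has a fold enrichment, a ratio to the background that the authors' caller estimated, and deposited −log10 values of its p and q, with q under 0.1 throughout. Read numbers are not part of the lists and the depth of each sample is unknown. A library with more reads can list more and wider peaks.

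Members and gene lists were chosen with earlier results of these data known. Overlap meant at least 1 bp, and the width of a domain in a library is that of the widest peak that overlaps it. Peak widths chose the domains, so widths in cycling libraries carry no test. A gene belonged to a domain when its RefSeq start (GRCm38.p6, the assembly of mm10) lay in it. For 1573 of the 1942 genes a stranded start was used, and for 369 either gene boundary. PSME3 and day 2 coverage were compared by exact sign-flip permutation tests over replicates or preparations, which cannot pass 0.05 at these numbers. The cycling replicates are biological per the study's figure legend, and each day 2 preparation is a single library. Same-numbered PSME3 and H3K4me3 libraries deviated together in their share of peaks over 19 autosomes (Pearson r of 0.54, 0.55 and 0.26). Unlike numbers were nearly as close for PSME3 replicate 1 with H3K4me3 replicate 3 (0.52) and for PSME3 replicate 3 with H3K4me3 replicate 1 (0.25). Replicate 2 alone was thus set apart by its number. Deviations were taken from the mean over the 3 replicates, which ties them together, so the values cannot show a pairing of replicates 1 and 3.

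Named domains are the 10 widest, the 10 with the most PSME3 peaks, the 5 widest without PSME3, up to 4 per list in 15 gene lists, the 5 widest never broad at day 2, the 5 with the greatest smallest day 2 width and the 3 on either side of the limit. Further list members, and the domains with the greatest loss or a gain at day 2, were named after their values were seen. Some domains that these rules select are not reported here. In promoter windows the CArG box was CC, 6 bases of A or T, and GG, and the AP-1 site TGANTCA with C or G at N, both on either strand. The overlap functions and the test were tested on simulated data. Analyses used Python 3.11.15, numpy 2.4.6, pandas 2.3.3 and scipy 1.17.1. Alternatives were a q of at most 0.01, peaks joined within 500 bp, other width limits, another reference class, each library left out, the replicate block, and, added after seeing the data, domains broad in at least 2 replicate lists.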

Additional observations from a re-analysis of the deposited data

How the results depend on the processing

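Of 70 alternative values, 47 were counted as unchanged, 18 as moved in size and 5 as reversed in sign. For the PSME3 and day 2 coverage differences, unchanged meant the same sign only, whatever the size. The 47 thus include a density difference of -0.267 per 10 kb with the pooled PSME3 list, against -0.00303 in the main setting. They also include a position difference of -0.000943 with domains of at least 7000 bp, against -0.0401 in the main setting. The PSME3 share difference ranged from 8.14 to 18.7 percentage points without a PSME3 replicate and was 7.88 with PSME3 peaks of q at most 0.01, and the position difference from -0.0484 to -0.0294. The position difference was -0.0795 with domains of at least 4000 bp and -0.000943 with 7000 bp. With the replicate block, the paired values were 13.4 percentage points for the share, -0.0136 per 10 kb for the density and -0.0401 for the position, and the block changed no direction. The density difference was near 0 and changed sign, to 0.0129 with q at most 0.01, 0.0105 with domains of at least 4000 bp and 0.00596 with domains broad in at least 2 lists. It was -0.267 with the pooled PSME3 list, -0.0325 against mid-sized peaks and -0.0253 with domains of at least 7000 bp, and it ranged from -0.00963 to 0.00166 per 10 kb without a PSME3 replicate. The day 2 coverage difference was -1.55 percentage points against mid-sized peaks (3 to 5 kb), and 12.6 to 13.0 without a preparation. The percent broad at day 2 (fresh native, fresh crosslinked, frozen native, frozen crosslinked) was 22.0, 40.2, 43.5 and 49.3 with a limit of 4000 bp, 12.1, 26.7, 30.0 and 33.6 with 7000 bp, and 26.9, 54.6, 57.6 and 62.6 for domains broad in at least 2 lists. The number of domains was 767 and 903 in the lists of replicates 1 and 3, 2804 at 4000 bp, 464 at 7000 bp, 876 when broad in at least 2 lists, and 947 to 1184 without an H3K4me3 replicate. The cause of these shifts was not tested, other than the fewer domains that a higher limit leaves.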
